A study of Mus musculus with 14 samples.

Results

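The mitochondrially encoded genes of the mouse were described across 14 RNA sequencing libraries of bone marrow cells. Members were all genes in the count table whose symbol starts with mt-, which gave 37 of the 52550 genes, namely 13 protein genes, 2 ribosomal RNA (rRNA) genes and 22 transfer RNA (tRNA) genes. The libraries came from 4 WT and 4 Mir139KO bone marrow preparations in which hematopoietic stem and progenitor cells (HSPCs) had been enriched and from 6 cultures of MLL-AF9 transformed WT cells. The mice were C57BL/6, aged 8 to 20 weeks, and the marrow came from femur and tibia. Mir139KO mice carry a CRISPR-Cas9 deletion of Mir139, a microRNA gene.

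MLL-AF9 is a leukemia fusion of the KMT2A (MLL) gene with MLLT3 (AF9). For the MLL-AF9 cultures, WT HSPCs were grown overnight with stem cell factor, GM-CSF and the interleukins IL-6 and IL-3 and transduced with a retrovirus, pMSCV-MLL-AF9-neo in replicates 1 to 3 and pMSCV-MLL-AF9-puro in replicates 4 to 6. They were then selected with the matching drug and replated repeatedly in methylcellulose. No sample was named as a culture of HSPCs without the fusion. The labels do not say for each sample whether cells were lysed at once or expanded, and the HSPC samples were taken as lysed at once. Effects of culture, selection and the fusion therefore cannot be told apart. The labels do not say that a replicate number stands for a mouse or a day, so the p-values given here measure the spread between these samples. Each HSPC label also holds an identifying number, and some of these numbers share their leading digits. What those numbers stand for is not said.

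Mitochondrial DNA is a small circular genome that nuclear-encoded enzymes copy and transcribe inside the organelle. Each of its strands is transcribed as a long precursor, from which tRNAs are cut out and so release the rRNAs and messenger RNAs between them. The encoded proteins are core subunits of respiratory chain complexes I (mt-Nd genes), III (mt-Cytb) and IV (mt-Co genes) and of the ATP synthase (mt-Atp genes), whereas the other subunits of these complexes come from the nucleus. The rRNAs and tRNAs serve the ribosomes of the organelle.

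On build GRCm38 the 37 genes lie on chromosome M without introns, 28 on the plus strand and 9 on the minus strand. The minus strand holds mt-Nd6 and 8 tRNA genes. The tRNA genes measure 59 to 75 bases. Sequences of 6 tRNA genes are shown because 3 plus-strand members had the largest fold differences between MLL-AF9 cells and WT HSPCs and 3 minus-strand members held most of the tRNA counts. Each is written 5′ to 3′ as the transcript reads, from the GENCODE transcripts on GRCm38, with the anticodon in capitals.
mt-Tr, the arginine tRNA, chrM:9808-9875, plus strand: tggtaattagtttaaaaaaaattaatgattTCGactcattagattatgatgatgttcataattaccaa
mt-Ti, the isoleucine tRNA, chrM:3706-3774, plus strand: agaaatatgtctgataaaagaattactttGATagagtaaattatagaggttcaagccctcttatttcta
mt-Tg, the glycine tRNA, chrM:9391-9458, plus strand: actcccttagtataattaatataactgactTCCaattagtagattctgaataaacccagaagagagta
mt-Tp, the proline tRNA, chrM:15356-15422, minus strand: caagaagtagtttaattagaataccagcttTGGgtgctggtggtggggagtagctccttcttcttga
mt-Tc, the cysteine tRNA, chrM:5192-5257, minus strand: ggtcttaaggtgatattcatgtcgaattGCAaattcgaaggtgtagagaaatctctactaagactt
mt-Tn, the asparagine tRNA, chrM:5089-5159, minus strand: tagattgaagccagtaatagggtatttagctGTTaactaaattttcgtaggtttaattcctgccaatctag

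The nuclear genome holds copies of mitochondrial DNA, and these bear on how reads are assigned. Bases 1 to 60 of mt-Nd3, a complex I gene, are shown with the matching bases of Gm28438, its copy on chromosome 1. Capitals mark the base that differs, T3C when counted from 1 at the 5′ end of the gene.
mt-Nd3, chrM:9459-9518, plus strand: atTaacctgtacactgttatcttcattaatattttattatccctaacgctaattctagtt
Gm28438, chr1:24613060-24613119, minus strand: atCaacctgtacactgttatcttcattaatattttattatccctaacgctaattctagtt
Bases 456 to 536 of mt-Co1, the catalytic subunit of complex IV, are shown with the same stretch of Gm13340, a copy on chromosome 2. The capitals mark A462G, A468G, T501C, C519T and G534A, counted in the same way.
mt-Co1, chrM:5783-5863, plus strand: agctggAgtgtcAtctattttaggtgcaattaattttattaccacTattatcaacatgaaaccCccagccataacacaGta
Gm13340, chr2:22589112-22589192, minus strand: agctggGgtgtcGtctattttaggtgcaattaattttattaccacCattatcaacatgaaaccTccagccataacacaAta

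The libraries held 35016668 to 45877994 counts. Mir139 itself had a count in 0 of 14 libraries, so its deletion could not be checked from these counts. Genes of erythroid cells summed to between 1672 and 2783 CPM, that is counts scaled to library size with TMM factors, in HSPC libraries and to between 2.37 and 16.04 CPM in MLL-AF9 libraries, where Car1, Hba-a2 and Hbb-bs were at 0, as Alas2 was in all libraries. Neutrophil genes summed to 4910 to 23540 CPM in HSPC libraries and 3006 to 4362 CPM in MLL-AF9 libraries, and known MLL-AF9 targets to 33.8 to 88.2 CPM and 383 to 1548 CPM, with Hoxa5 at 0 in all libraries. HSPC genes summed to 397 to 595 CPM in HSPC libraries and to 173 to 1068 CPM in MLL-AF9 libraries, where 5 of the 7 were called lower than in WT HSPCs and Meis1 higher. Mast cell and basophil genes summed to 608 to 1788 CPM in HSPC libraries and 4.94 to 28.9 CPM in MLL-AF9 libraries. Of the tested genes, 6 of 6 B cell, 7 of 7 T and NK cell, 6 of 6 megakaryocyte and 4 of 6 monocyte genes were called lower in MLL-AF9 cells than in WT HSPCs. The monocyte gene Adgre1 was called higher, at a log2 fold change of 1.47. Of all genes tested, 29.4% were called lower and 32.8% higher. The part of these other cell types in the results was not tested. A noncoding gene model, Gm26917, took 17.0% to 35.4% of the counts of HSPC libraries, split into 4 libraries under 25% (WT replicates 1 and 2, Mir139KO replicates 2 and 3) and 4 over it, and 7.55% to 10.4% of those of MLL-AF9 libraries. MLL-AF9 replicates 4 and 6 were closer to each other than any other replicate pair within a group and vector, with a chi-square per gene of 9.002 against 20.9 or more elsewhere. They differed beyond counting noise and were kept as separate samples, as the labels list them. This difference cannot show that they are independent cultures.

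The mitochondrial genes took up a larger share of the library in MLL-AF9 cells than in HSPCs. In WT HSPCs the 37 genes held 0.438%, 0.772%, 0.1098% and 0.1098% of the counts in replicates 1 to 4. In Mir139KO HSPCs they held 0.0949%, 0.378%, 0.328% and 0.125%. In MLL-AF9 cells they held 2.34%, 1.12% and 1.46% in the neo cultures and 1.05%, 1.06% and 1.24% in the puro cultures. Every MLL-AF9 library was thus above all HSPC libraries, whereas the WT and Mir139KO ranges overlapped.

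The mean share of MLL-AF9 cells was 1.38% ± 0.496 (SD, n = 6). That of WT HSPCs was 0.357% ± 0.317 (SD, n = 4) and that of Mir139KO HSPCs 0.231% ± 0.142 (SD, n = 4). MLL-AF9 cells were 3.86-fold above WT HSPCs and 5.96-fold above Mir139KO HSPCs. Without WT replicate 2 the WT mean was 0.2192%, and MLL-AF9 cells were 6.29-fold above it. Counting error was small beside this spread. For the WT library with 0.438%, the 95% Wilson interval was 0.436% to 0.440%. In bulk samples, a change in the number of cells of a type and a change in RNA per cell cannot be told apart.

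Within HSPCs the share moved with Gm26917. The 4 libraries under 25% Gm26917 had mean mitochondrial shares of 0.605% (WT) and 0.353% (Mir139KO), and the 4 libraries over it 0.1098% (WT) and 0.11% (Mir139KO). With Gm26917 taken out of the total, the means were 0.451% in WT HSPCs, 0.308% in Mir139KO HSPCs and 1.52% in MLL-AF9 cells, so the order of the groups was kept. The part of Gm26917 in the share was not tested beyond this.

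**Figure D1:**
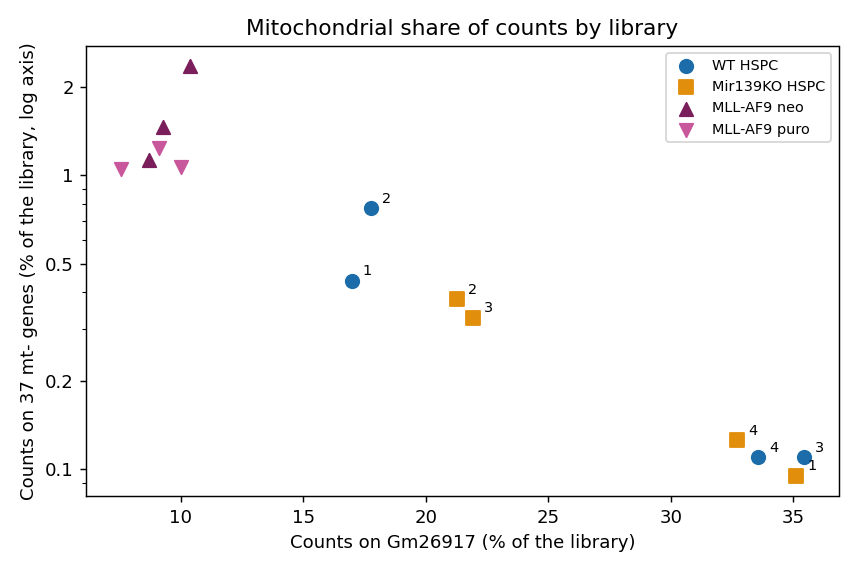
Share of each library's counts on the 37 mitochondrial genes (vertical, percent, log axis) against its share on Gm26917 (horizontal, percent), with 1 point per library and replicate numbers beside HSPC points. The 6 MLL-AF9 libraries lie at 1.05% or more, above all 8 HSPC libraries, and the 4 HSPC libraries with over 25% Gm26917 have the lowest mitochondrial shares.

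Of 4226219 mitochondrial counts in the 14 libraries, protein genes held 98.19%, rRNA genes 1.427% and tRNA genes 0.3854%. mt-Td and mt-Tk, the aspartate and lysine tRNAs, had no count in any library. By counting error alone this allows up to 3 counts, or 0.0545 to 0.129 CPM, in each. Nuclear copies outside annotated transcripts were not searched, and how reads with several matches were counted is not given. The absence of counts therefore does not bound the levels of these tRNAs. mt-Ts1, a serine tRNA, had 2 counts in all. Of the tRNA counts 80.45% fell on the minus-strand genes, and mt-Tp, mt-Tc and mt-Tn alone held 73.79%.

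Levels of the protein genes, compared as CPM per kilobase of gene, had a similar order in the groups. In WT HSPCs mt-Co1 led at 1295 ± 847 CPM per kb (SD, n = 4), followed by mt-Nd1 at 337 ± 179 and mt-Cytb at 304 ± 238. mt-Nd1 and mt-Cytb did not differ beyond their spread. In Mir139KO HSPCs mt-Co1 was at 995 ± 476 CPM per kb (SD, n = 4), followed by mt-Nd1 at 306 and mt-Cytb at 240. In MLL-AF9 cells mt-Co1 reached 4085 ± 1644 CPM per kb (SD, n = 6), with mt-Nd1 at 949 ± 453 and mt-Cytb at 901 ± 271, again close together. Next in MLL-AF9 cells came mt-Nd5 at 633, mt-Nd6 at 427, mt-Nd2 at 336 and mt-Nd4 at 332 CPM per kb. mt-Atp8, an ATP synthase gene, was lowest in each group, at 0.127 CPM per kb in WT HSPCs and 1.34 CPM per kb in MLL-AF9 cells.

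Genes of the same strand thus differed greatly in level, and 5 of the 6 lowest shared almost their whole sequence with a nuclear copy. Each gene was cut into windows of 50 bases, and the share of windows that also occur in another annotated transcript was 100% for mt-Co2, 99.9% for mt-Co3, 99.5% for mt-Atp6, 98.8% for mt-Nd4l and 98.0% for mt-Nd3. These 5 genes lay at 1.19 to 8.48 CPM per kb in WT HSPCs and 5.77 to 20.7 CPM per kb in MLL-AF9 cells. The 5 genes mt-Nd1, mt-Nd2, mt-Nd5, mt-Nd6 and mt-Cytb, with shares under 10%, lay at 110 to 337 CPM per kb in WT HSPCs and 336 to 949 CPM per kb in MLL-AF9 cells. mt-Atp8 had a share of 0% and was low as well. It is short and overlaps mt-Atp6 by 43 bases. The windows were sought in annotated transcripts only. mt-Atp8 lies mostly between mt-Co2 and mt-Atp6, whose copies lie in the same order on chromosome 1 (24614885-24615565 and 24613974-24614651). The genome between those copies was not searched. A share of 0% therefore does not show that a gene has no nuclear copy. The same limit holds for the tRNA genes.

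The copies of mt-Co2 (Gm28661), mt-Atp6 (Gm10925), mt-Co3 (Gm28437) and mt-Nd4l (Gm10222) on chromosome 1 are the same as the mitochondrial gene at every aligned base, and that of mt-Nd3 differs by the 1 base shown above. mt-Co2 had 5741 counts over the 14 libraries and Gm28661 had 2553, and mt-Atp6 had 1871 against 1963 for Gm10925. How reads that match several places were counted is not given in the sources used here, so the counts of these 5 genes are uncertain and their levels cannot be compared with those of the other protein genes. For mt-Co1, 51.1% of windows occur elsewhere, and for mt-Nd4 62.2%. The mt-Co1 copy Gm13340 differs from it at 37 of 1545 bases and had no count in any library, and its copy Gm29216 had 5036 counts against 2502753 for mt-Co1.

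**Figure D2:**
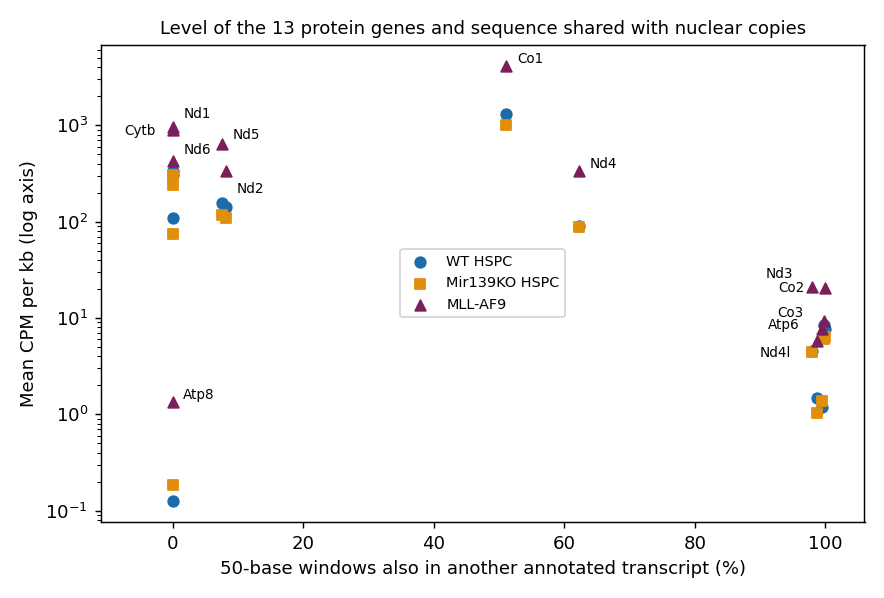
Mean level of the 13 mitochondrial protein genes (vertical, CPM per kb, log axis) in each group, against the share of 50-base windows that also occur in another annotated transcript (horizontal, percent). The 5 genes over 90% lie at 20.7 CPM per kb or less, whereas mt-Nd1, mt-Nd2, mt-Nd5, mt-Nd6 and mt-Cytb lie at 74.4 CPM per kb or more.

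The largest part of the protein counts, mt-Co1, was similar between groups, whereas some smaller parts were not. mt-Co1 made up 59.7% of them in WT HSPCs, 57.7% in Mir139KO HSPCs and 59.8% in MLL-AF9 cells, with library values from 50.2% to 66.3%. mt-Nd5, a complex I subunit, made up 8.44% ± 1.03 (SD, n = 4), 8.05% ± 0.925 (SD, n = 4) and 11.1% ± 1.10 (SD, n = 6). Its range in MLL-AF9 cells, 9.79% to 12.8%, overlapped that of WT HSPCs, 7.65% to 9.86%, but not that of Mir139KO HSPCs, 6.96% to 9.19%. mt-Co3 in MLL-AF9 cells, 0.0476% to 0.111%, lay below Mir139KO HSPCs, 0.125% to 0.347%, and overlapped WT HSPCs. mt-Atp6 in MLL-AF9 cells, 0.0397% to 0.0803%, lay above WT HSPCs, 0.0100% to 0.0367%, and overlapped Mir139KO HSPCs. Both mt-Co3 and mt-Atp6 are among the genes with uncertain counts, so their parts of the protein counts are uncertain too. mt-Nd1 was at 10.8%, 12.9% and 8.91%.

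The minus-strand gene mt-Nd6 was set against the 12 plus-strand protein genes. Per 100 counts on those, mt-Nd6 had 1.77 ± 0.088 counts in WT HSPCs (SD, n = 4, range 1.68 to 1.88). The value for Mir139KO HSPCs was 1.67 ± 0.610 (SD, n = 4, range 1.04 to 2.51), and for MLL-AF9 cells it was 2.15 ± 0.193 (SD, n = 6, range 1.93 to 2.40). The MLL-AF9 and WT ranges did not overlap, but the Mir139KO range spanned both.

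MLL-AF9 cells were compared with WT HSPCs to ask which members differ with transformation. The fit was edgeR's quasi-likelihood test over 17077 genes, with the Benjamini-Hochberg adjusted p over all of them and a call under 0.05. Of 28 members with enough counts to be tested, 20 rose and 1 fell, against 32.8% and 29.4% of all genes tested that were called higher and lower. The median log2 fold change was 1.74 over the tested members and 0.14 over all genes. MLL-AF9 and WT libraries did not overlap, with MLL-AF9 higher, for 11 members, against 25.8% of all genes. Of the 28, 12 were tested because of their counts in MLL-AF9 libraries, so these counts describe the tested members and do not stand for the 37. Of the 16 with at least 10 counts in every WT library, 8 rose, 1 fell and 7 were not called.

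The direction of these differences depended on whether base composition was corrected for. Members are poor in G and C (17.14% to 44.93%, against a median of 47.08% over all genes), and 26 of the 28 tested lay in the lowest of 5 equal groups of genes ordered by GC content. All genes in that group had a median log2 fold change of 1.52, and the medians of the following groups were 0.49, -0.05, -0.60 and -0.86. With a smooth GC trend removed in each library, 0 members rose and 6 fell, against 32.6% and 25.1% of all genes, and the median over the tested protein genes was -0.26 where it had been 1.75. The GC trend and the difference between MLL-AF9 cells and HSPCs cannot be told apart here, so each direction of a member given next holds without that correction, and the corrected value is given beside it.

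Among complex I genes, mt-Nd4 had 141.2, 192.8, 82.99 and 84.14 CPM in WT HSPCs, and in MLL-AF9 cells a lowest, median and highest value of 377.4, 407.4 and 684.4 CPM. The ranges did not overlap. Its log2 fold change was 1.86 (SE 0.33, edgeR adjusted p = 0.000574), and -0.41 with GC correction. mt-Nd5 had 386, 513.5, 128.1 and 123.9 CPM in WT HSPCs and 896.1, 1017 and 1943 CPM in MLL-AF9 cells, again without overlap. It rose by 1.99 on the log2 scale (SE 0.46, adjusted p = 0.00283), and its GC-corrected value was 0.12 and not called.

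mt-Nd6, on the minus strand, had 64.61, 104.9, 30.68 and 27.46 CPM in WT HSPCs and a lowest, median and highest value of 156.7, 196.7 and 393.7 CPM in MLL-AF9 cells, without overlap. Its log2 fold change of 1.95 (SE 0.44, adjusted p = 0.0023) was near that of mt-Nd5, which it overlaps by 14 bases on the other strand, and was -0.42 with GC correction. mt-Nd1 and mt-Nd2, at 1.48 (SE 0.46, adjusted p = 0.0145) and 1.23 (SE 0.41, adjusted p = 0.0205), rose as well, with overlapping libraries. With GC correction they were at -0.52 and -0.99, and mt-Nd2 was then called lower (adjusted p = 0.0151). mt-Nd3 and mt-Nd4l rose by 2.18 (adjusted p = 0.0223) and 1.94 (adjusted p = 0.00748), and were at -0.16 and 0.64 with GC correction. Both were tested through the MLL-AF9 libraries, where mt-Nd3 reached 15.13 CPM against at most 3.573 CPM in WT HSPCs.

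mt-Cytb, the complex III subunit that binds the heme groups of its electron path, had 377.9, 721.6, 127.7 and 164.5 CPM in WT HSPCs and 647.6, 1037 and 1408 CPM (lowest, median, highest) in MLL-AF9 cells. WT replicate 2 lay above the lowest MLL-AF9 library. The log2 fold change was 1.55 (SE 0.48, adjusted p = 0.0136), and 0.01 without a call after GC correction.

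mt-Co1 of complex IV had 2501, 3623, 1004 and 876.7 CPM in WT HSPCs and 4600, 5521 and 11370 CPM in MLL-AF9 cells, without overlap. It rose by 1.64 on the log2 scale (SE 0.46, adjusted p = 0.00839), and was at 0.22 without a call after GC correction. mt-Co2 rose by 1.39 (SE 0.43, adjusted p = 0.0131) and was at -0.35 with GC correction. mt-Co3 was the tested protein gene without a call, at 0.14 (SE 0.56, adjusted p = 0.846), and fell by 1.36 on the log2 scale with GC correction (adjusted p = 0.0131). In WT replicate 2 it had 17.47 CPM, above the highest MLL-AF9 library at 10.11 CPM. The ATP synthase gene mt-Atp6 had 0.3931, 2.074, 0.1669 and 0.5946 CPM in WT HSPCs and at least 3.496 CPM in MLL-AF9 cells, and rose by 2.67 on the log2 scale (SE 0.63, adjusted p = 0.00309), or 0.68 without a call with GC correction. mt-Co2, mt-Co3 and mt-Atp6 are among the genes with uncertain counts. mt-Atp6 was also tested through the MLL-AF9 libraries, as it had only 5 counts in WT replicate 3.

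**Figure D3:**
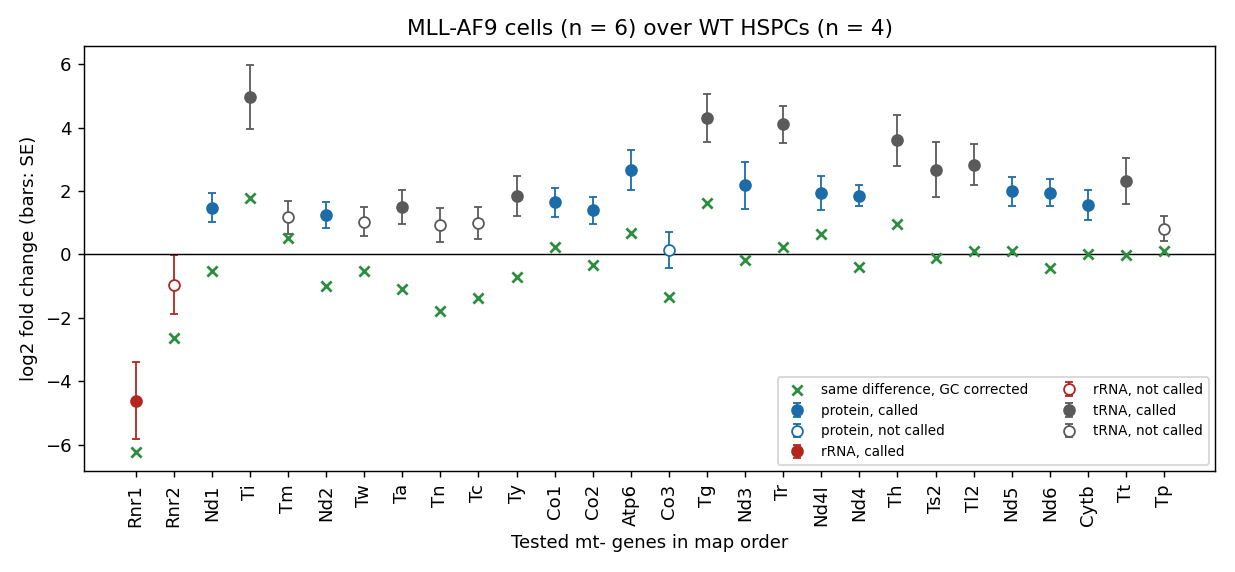
Log2 fold change of the 28 tested mitochondrial genes in MLL-AF9 cells (n = 6) over WT HSPCs (n = 4), in map order, with bars for the SE, filled symbols for called genes and crosses for the value after GC correction. All tested protein genes lie above 0 without the correction and 5 of 12 do with it, and mt-Rnr1 lies below 0 in either case.

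Leaving out a single library or some of the HSPC libraries moved several of these values. Without WT replicate 2, which had the highest mitochondrial share of the HSPC libraries, 13 of 13 tested protein genes rose with a median of 2.15, among them mt-Co3 at 1.22, and 32.2% of all genes were called higher. Against the WT libraries with over 25% Gm26917 alone, 12 of 13 protein genes rose with a median of 2.64 (33.0% of all genes), and against those under 25% alone 4 of 13 did with a median of 1.30 (21.0% of all genes), namely mt-Atp6, mt-Nd4, mt-Nd5 and mt-Nd6. With neo cultures alone 11 of 12 protein genes and 11 of 13 tRNA genes rose (27.9% of all genes), and with puro cultures alone 6 of 12 and 4 of 11 (27.6% of all genes). The fits with 13 protein genes tested mt-Atp8 through its MLL-AF9 libraries, as it had at most 2 counts in a WT library. Members that passed the filter this way, among them tRNA genes, add no support to these numbers. These fits were made without GC correction.

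The values of the rRNA genes against WT HSPCs depended on WT replicate 2. mt-Rnr1, the rRNA of the small ribosomal subunit, had 31.11, 784.9, 1.235 and 22.45 CPM in WT HSPCs, and 3.173, 5.901 and 16.63 CPM (lowest, median, highest) in MLL-AF9 cells. WT replicate 2 was far above the others, and the remaining WT libraries overlapped MLL-AF9 cells. The log2 fold change was -4.61 (SE 1.22, edgeR adjusted p = 0.00602), -6.24 with GC correction (adjusted p = 0.00104) and -1.13 without WT replicate 2, where it was no longer called (adjusted p = 0.222). DESeq2 gave no adjusted p for either rRNA gene.

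mt-Rnr2, the rRNA of the large subunit, had 5.606, 203.1, 3.238 and 6.615 CPM in WT HSPCs and a lowest, median and highest value of 17.2, 25.74 and 43.29 CPM in MLL-AF9 cells. With WT replicate 2 the log2 fold change was -0.96 (SE 0.93, adjusted p = 0.385), and without it 2.40 (adjusted p = 0.000568). With GC correction and all libraries it was -2.65 and called lower (adjusted p = 0.015), and limma-voom put it at 1.02 without a call. No direction of mt-Rnr2 therefore held across these fits. Library preparation removed rRNA before sequencing, and these counts are what was left after that step. Its part in the values was not tested.

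The ratio of the rRNA genes differed between groups in the same libraries. Counts on mt-Rnr2 per count on mt-Rnr1 were 4.13 ± 1.81 in MLL-AF9 cells (SD, n = 6, range 2.29 to 6.77). They were 0.839 ± 1.19 for WT HSPCs (SD, n = 4, range 0.180 to 2.62) and 0.933 ± 0.478 for Mir139KO HSPCs (SD, n = 4, range 0.357 to 1.41). MLL-AF9 cells lay above every HSPC library except WT replicate 3, at 2.62, which was within their range. Without that library the WT mean was 0.2445. Per 100 protein counts the rRNA genes had 4.85 ± 7.73 counts in WT HSPCs, 0.941 ± 0.347 in Mir139KO HSPCs and 0.383 ± 0.199 in MLL-AF9 cells. Without WT replicate 2 the WT mean was 1, near that of Mir139KO HSPCs.

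**Figure D4:**
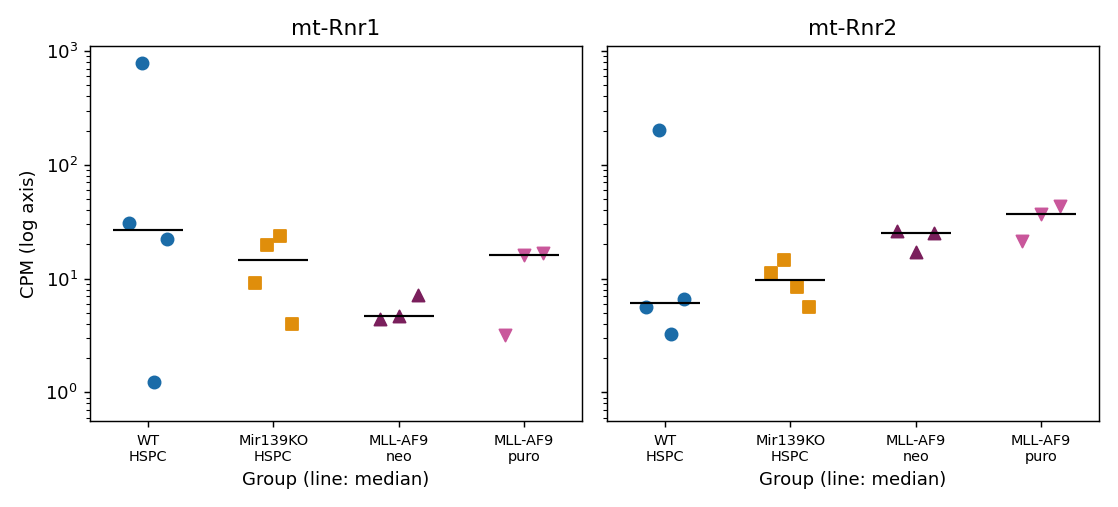
Level of mt-Rnr1 (left) and mt-Rnr2 (right) in each library (CPM, log axis) by group, with the MLL-AF9 cultures split by vector and a line at each median. WT replicate 2 lies at 784.9 CPM for mt-Rnr1 and 203.1 CPM for mt-Rnr2, above every other library.

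Of the 14 tRNA genes tested, 9 rose, namely mt-Ti, mt-Tg, mt-Tr, mt-Th, mt-Ts2, mt-Tl2, mt-Tt, mt-Ta and mt-Ty. These are the 9 that passed the filter through their counts in MLL-AF9 libraries, so their number supports nothing, and the 5 with at least 10 counts in every WT library (mt-Tm, mt-Tw, mt-Tn, mt-Tc and mt-Tp) were not called. With GC correction 7 of the 14 were above 0 and none was called higher. mt-Tr, shown above with its arginine anticodon, had 0.08275, 0.1383, 0.03338 and 0.07432 CPM in WT HSPCs and 0.8822, 1.218 and 3.193 CPM (lowest, median, highest) in MLL-AF9 cells, and its log2 fold change was 4.11 (SE 0.58, adjusted p = 0.000126), or 0.22 with GC correction. mt-Tg, the glycine tRNA, was at most 0.0461 CPM in WT HSPCs and at least 0.3228 CPM in MLL-AF9 cells, and rose by 4.31 on the log2 scale (SE 0.76, adjusted p = 0.000507), or 1.62 with GC correction.

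mt-Ti, the isoleucine tRNA, had 2 counts over the WT HSPC libraries and 159 over the MLL-AF9 libraries, a depth-scaled ratio of 38.1 (exact interval for counting error 10.4 to 317). Its fitted log2 fold change was 4.96 (SE 1.00, adjusted p = 0.00119), or 1.78 with GC correction. These 3 tRNAs had under 10 counts in every WT HSPC library and passed the filter through MLL-AF9 libraries, as did mt-Th and mt-Ts2, and the size of their change is poorly fixed. None of the 3 was called with GC correction.

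The 3 abundant minus-strand tRNAs did not pass the threshold. mt-Tp, the proline tRNA, had 7.261, 9.012, 9.247 and 8.956 CPM in WT HSPCs, a narrow range, and 8.63, 10.51 and 30.8 CPM (lowest, median, highest) in MLL-AF9 cells. Its log2 fold change was 0.81 (SE 0.41, adjusted p = 0.0976), or 0.09 with GC correction. mt-Tc was at 1.00 (SE 0.51, adjusted p = 0.103) and mt-Tn at 0.94 (SE 0.53, adjusted p = 0.143), and with GC correction these last genes fell by 1.38 and 1.80 on the log2 scale. As a share of the tRNA counts the minus strand held 88.6% ± 2.20 in WT HSPCs (SD, n = 4) and 90.6% ± 3.06 in those of Mir139KO mice (SD, n = 4). For MLL-AF9 cells it was 75.8% ± 6.68 (SD, n = 6), with libraries that overlapped those of the HSPCs. Set against protein counts, plus-strand tRNAs were at 0.0707, 0.0754 and 0.0804 counts per 100 protein counts, and minus-strand tRNAs were at 0.601, 0.933 and 0.270, in WT HSPCs, Mir139KO HSPCs and MLL-AF9 cells. Without Mir139KO replicate 1 the Mir139KO value of the minus strand was 0.5011. Without a stated strand setting, reads from a tRNA gene and from the opposite strand cannot be told apart.

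Most nuclear genes for subunits of the same complexes were lower in MLL-AF9 cells than in WT HSPCs, with or without GC correction, whereas no mitochondrial protein gene was called higher with it. The calls over every tested gene were 32.8% up and 29.4% down, and a list with shares near these is not set apart by its counts. Of 71 tested nuclear subunits of complexes I, III, IV and V, 1 rose and 59 fell, with a median log2 fold change of -1.40, and with GC correction 0 rose and 58 fell at a median of -1.03. Scaled by total counts alone, which moved the median of all genes by 0.55, 2 rose and 38 fell. Ndufs4, a complex I subunit, was the gene that rose, at 1.24 (adjusted p = 0.00323), and it was not called with GC correction (0.23). Those that fell included Ndufv1 of complex I at -2.55 (adjusted p = 0.000118), Uqcr11 of complex III at -2.24, Cox5b of complex IV at -2.10 and Atp5o of the ATP synthase at -2.24. In complex II, which has no mitochondrially encoded subunit, 4 of 4 genes fell, among them Sdhb at -2.25. The median GC content of these nuclear genes was 50.16%, against 37.37% for the mitochondrial protein genes.

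Of 72 tested mitochondrial ribosomal proteins, all encoded in the nucleus, 2 rose and 46 fell, with a median of -1.03, and 2 rose and 44 fell with GC correction. Mrpl1 rose by 2.34 (adjusted p = 0.0025) and Mrpl52 was at -2.97 (adjusted p = 0.000101). Of 19 mitochondrial aminoacyl-tRNA synthetases, which load the tRNAs, 4 rose and 10 fell, from Fars2 at 2.11 (adjusted p = 4.53e-05) to Sars2 at -1.91 (adjusted p = 0.00121), which lost its call with GC correction. Of 12 translation factors 3 rose, among them Guf1 at 1.74 (-0.15 with GC correction), and 4 fell, with Tufm, the elongation factor that brings tRNAs to the ribosome, at -2.62 (adjusted p = 0.000292).

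Of 9 genes for mitochondrial transcription, 4 rose and 1 fell, and with GC correction 1 rose and 2 fell. Polrmt, the mitochondrial RNA polymerase, was the one that fell, from 69.3 ± 37.3 CPM (SD, n = 4) in WT HSPCs to 14.5 ± 3.56 CPM (SD, n = 6) in MLL-AF9 cells, or by -2.27 on the log2 scale (adjusted p = 0.000214). Mterf2 had the highest value, 2.26 (adjusted p = 0.00142). Tfb2m, the partner of Polrmt at promoters, rose by 1.21 (adjusted p = 0.0355) and was at 0.13 with GC correction, and Tfam, the packaging and transcription factor, was at 0.05 (adjusted p = 0.94). Of 14 genes for replication of mitochondrial DNA, 2 rose and 5 fell, from Primpol at 1.70 (adjusted p = 0.00152) down, with the polymerase Polg at -1.51 (adjusted p = 0.000927) and the helicase Twnk at -1.88 (adjusted p = 0.000779).

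Genes that process and degrade mitochondrial RNA were divided. Of 20 for cleavage and modification, 3 rose and 8 fell, and with GC correction 1 rose and 2 fell. The ends of this list were Nsun3 at 1.73 (adjusted p = 0.00165) and Pus1, a pseudouridine synthase, at -1.90 (adjusted p = 0.00296). Elac2, which cuts the tRNA 3′ end, was at -1.22 (adjusted p = 0.0163, and not called with GC correction) and Hsd17b10, a part of the enzyme that cuts the 5′ end, at -1.71 (adjusted p = 0.000822), while its partner Trmt10c was at 1.19 (adjusted p = 0.0616). Of 17 for stability and decay, 2 rose and 4 fell. Mtpap, the mitochondrial poly(A) polymerase, rose by 1.69 (adjusted p = 0.00618), and so did Pnpt1, an exoribonuclease, by 1.67 (adjusted p = 0.00886), though it was at 0.19 with GC correction. Ptcd1 was lowest at -1.38 (adjusted p = 0.000877), and Rexo2, which degrades short RNAs, was at -1.28 (adjusted p = 0.000362). Lrpprc and Slirp, which bind and stabilize mitochondrial messenger RNAs, were at 0.49 (adjusted p = 0.356) and 0.91 (adjusted p = 0.0701). Of 8 regulators of mitochondrial biogenesis, 3 rose and 1 fell, with the coactivator Ppargc1a at 2.87 (adjusted p = 0.00264) and Pprc1 at -2.06 (adjusted p = 0.0029), which lost its call with GC correction. Ppargc1a had a mean of only 0.052 CPM in WT HSPCs and 0.412 CPM in MLL-AF9 cells. It was tested through the MLL-AF9 libraries, so the size of its change is poorly fixed.

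MLL-AF9 cells were next compared with Mir139KO HSPCs, which do not share libraries with the WT HSPCs, although the MLL-AF9 libraries are those used above. Of 28 tested members, 23 rose and 0 fell, against 37.3% and 31.9% of 16953 genes, with a median log2 fold change of 1.89 against 0.16 over all genes. MLL-AF9 libraries lay above all Mir139KO libraries for 15 members, against 29.5% of all genes. The 23 were 11 of 12 protein genes, 11 of 14 tRNA genes and mt-Rnr2. Here too 10 of the 28 passed the filter through MLL-AF9 libraries, and 9 of these were tRNA genes. The number of tRNA genes that rose therefore supports nothing. Of the 18 members with at least 10 counts in every Mir139KO library, 13 rose, 0 fell and 5 were not called. With GC correction 0 of the 28 rose and 7 fell, against 35.3% and 27.4% of all genes, and the 7 were mt-Rnr1, mt-Rnr2, mt-Nd2, mt-Co3, mt-Ta, mt-Tn and mt-Tc.

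mt-Nd6 had the largest log2 fold change of the protein genes in this comparison. It had 36.37, 38.31, 50.62 and 29.16 CPM in Mir139KO HSPCs and at least 156.7 CPM in MLL-AF9 cells, without overlap. The log2 fold change was 2.4985 (SE 0.31, edgeR adjusted p = 2.54e-05), and it was -0.11 with GC correction. mt-Co3 was lowest at 0.60 (SE 0.36, adjusted p = 0.152), and at -1.32 with GC correction. Among the tRNAs, mt-Tr was highest at 4.94 (adjusted p = 5.21e-05), or 1.32 without a call with GC correction. It had 6 counts over the Mir139KO libraries and 470 over the MLL-AF9 libraries, a depth-scaled ratio of 31.4 (exact interval for counting error 14.3 to 86.1). mt-Tr was tested through the MLL-AF9 libraries, so the size of its change is poorly fixed. mt-Tn was at 0.18 (adjusted p = 0.819), or -2.68 with GC correction.

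mt-Rnr2 had 11.15, 14.67, 8.441 and 5.603 CPM in Mir139KO HSPCs and 17.2 CPM or more in MLL-AF9 cells, without overlap. It rose by 1.48 on the log2 scale (SE 0.34, adjusted p = 0.00184), and was at -0.94 with GC correction. mt-Rnr1 had 9.081, 19.88, 23.67 and 3.973 CPM in Mir139KO HSPCs, within reach of the MLL-AF9 libraries, and was at -0.73 (adjusted p = 0.262). No Mir139KO library had rRNA levels like those of WT replicate 2. The nuclear subunits of complexes I, III, IV and V had 2 genes that rose and 62 that fell among 71 tested.

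Mir139KO and WT HSPCs were compared to ask whether loss of the microRNA goes with a change in mitochondrial RNA. Of 20 tested members 0 were called, as were 0.0% of 15056 genes. The count was also 0 with DESeq2 and with limma-voom. At an unadjusted p under 0.05 there was 1 member, mt-Rnr1, against 0.571% of all genes. Its log2 fold change of -3.92 (SE 1.58, unadjusted p = 0.0342, adjusted p = 1.0) was the lowest of all genes tested, and was -0.38 without WT replicate 2.

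The protein genes lay between -0.58 (mt-Nd6) and 0.19 (mt-Atp6), with 11 of 12 below 0. Without WT replicate 2, 9 of 12 were above 0, mt-Nd6 was at -0.11 and mt-Rnr2 went from -2.48 to 0.93. mt-Co1 had 747.1, 2121, 2206 and 1076 CPM in Mir139KO HSPCs, inside the range of the WT libraries but for replicate 1. In either genotype the libraries with under 25% Gm26917 had the higher mt-Co1 levels. The tested tRNAs ran from mt-Tw at -0.44 to mt-Tn at 0.72, where Mir139KO replicate 1 had 8.435 CPM of mt-Tn against 1.748 CPM or less in the other 3 Mir139KO libraries and without which mt-Tn was at -0.58. No gene of the nuclear lists described above was called.

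Within the MLL-AF9 cultures, those with the puro vector were compared with those with the neo vector. Of 29 tested members 0 were called, against 0.873% of 16503 genes, and 9 had an unadjusted p under 0.05, against 13.7% of all genes. Log2 fold changes were below 0 for 26 of the 29, including 13 of 13 protein genes with a median of -0.77, and puro libraries lay below all neo libraries for 10 members, against 8.67% of all genes. These 10 were mt-Nd2, mt-Co2, mt-Atp6, mt-Co3, mt-Cytb, mt-Tm, mt-Tw, mt-Ta, mt-Ty and mt-Th. With replicates 4 and 6 summed, edgeR called 0 of 31 tested members, and 4 had an unadjusted p under 0.05. The share of all genes in that fit is not given here.

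mt-Cytb had 1296, 1188 and 1408 CPM in the neo cultures and 647.6, 886.4 and 759 CPM in the puro cultures. The difference was -0.77 on the log2 scale (SE 0.17, unadjusted p = 0.00287, adjusted p = 0.104). mt-Nd2 had 494.7, 413.1 and 476.5 CPM in neo and 168.3, 317.9 and 222.6 CPM in puro cultures, and differed by -0.98 on the log2 scale (adjusted p = 0.141). The protein genes ran from mt-Atp8 at -1.05 (adjusted p = 0.663, and 0.24 without neo replicate 1) to mt-Nd4 at -0.40 (adjusted p = 0.542), and none of these passed the threshold.

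The total mitochondrial share was 1.64% ± 0.632 (SD, n = 3) in neo and 1.12% ± 0.105 (SD, n = 3) in puro cultures, with overlapping ranges. Neo replicate 1 had the highest share, 2.34%, and without it the median of the protein genes was -0.33. The rRNA genes lay above 0, with mt-Rnr1 at 1.12 (adjusted p = 0.501) and mt-Rnr2 at 0.55 (adjusted p = 0.535), and rRNA counts per 100 protein counts were 0.237 in neo and 0.528 in puro cultures, without overlap. DESeq2 called 6 members lower in puro cultures, against 3.16% of all genes, namely mt-Atp6, mt-Cytb, mt-Nd2, mt-Ta, mt-Tm and mt-Ty. Without puro replicate 5, edgeR called 4 members lower, against 1.92% of all genes, namely mt-Cytb, mt-Nd1, mt-Nd2 and mt-Tc. The 5 groups of genes ordered by GC content had medians from -0.09 to 0.04 in this comparison.

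**Figure D5:**
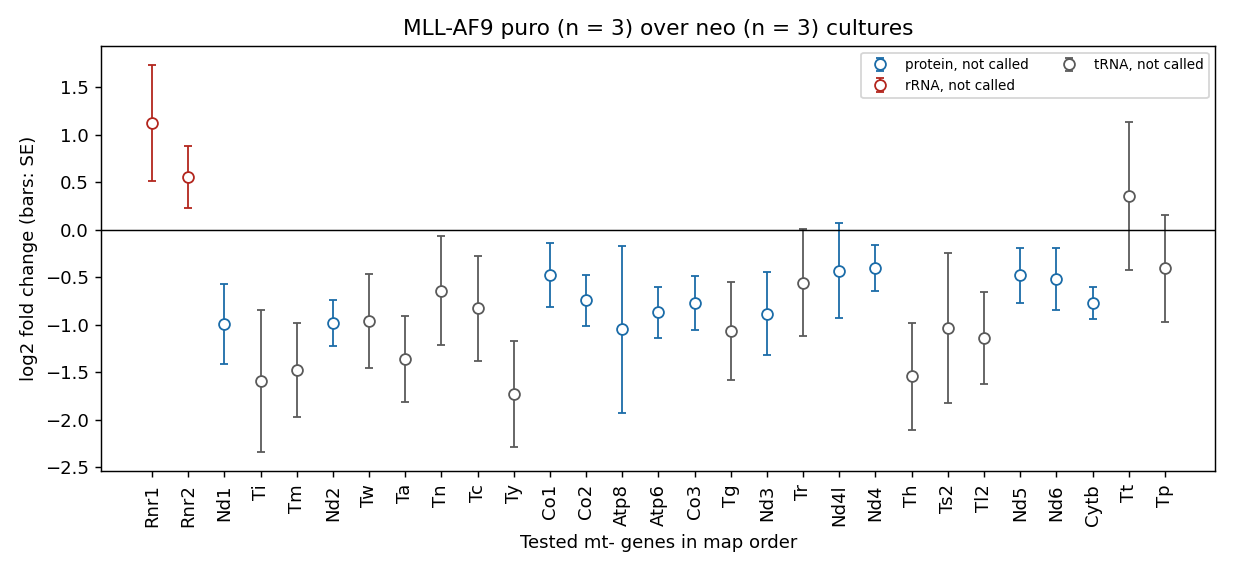
Log2 fold change of the 29 tested mitochondrial genes in puro (n = 3) over neo (n = 3) MLL-AF9 cultures, in map order, with bars for the SE and open symbols because none was called. The 13 protein genes lie between -1.05 and -0.40, and the 2 rRNA genes lie above 0.

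The genes whose log2 CPM most resembled the mean of the 13 mitochondrial protein genes over the 14 libraries, among 8895 genes searched, were Fam8a1 (Pearson r of 0.986), Ccdc47 (0.984), Smap1 (0.978), Abcd3 (0.976) and Golim4 (0.976). HSPC and MLL-AF9 libraries form separate clusters in these values, so the coefficients describe these 14 libraries.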

How the data were processed

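The authors deposited unnormalized counts per gene, as whole numbers. Per the labels, total RNA was isolated with TRIzol, rRNA was removed with the KAPA RNA HyperPrep kit with RiboErase, and libraries were run on a NovaSeq. Per the processing notes and methods, reads were checked with FastQC 0.11.8, aligned to GRCm38 with STAR 2.5.3e and counted with featureCounts 1.6.0, and DESeq2 1.22.2 was used by the authors. Which strand setting was used and how reads with several matches were treated are not given in the sources used here. Both deposited count tables were equal in all 735700 values compared, and 10 columns of another series were not used.

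The members and gene lists were chosen with earlier results of these data known. A gene was tested when its count was 10 or more in a number of samples no lower than the size of the smaller group, with edgeR 4.0.16 (R 4.3.3, limma 3.58.1), with TMM scaling, robust dispersion estimates and a quasi-likelihood F test on the samples of the 2 groups compared, and called at a Benjamini-Hochberg adjusted p under 0.05. CPM were scaled with TMM factors. The SE is the log2 fold change over the square root of F. DESeq2 1.42.0 and limma-voom were alternatives, as were other scalings, filters, a GC correction (a spline with 5 degrees of freedom on gene GC content, as offsets), a replicate block and each library left out. Mitochondrial shares and ratios were not tested. Members named were, against WT HSPCs, all tested protein and rRNA genes and the 3 tRNA genes at either end of the log2 fold changes, and elsewhere the highest and lowest protein and tRNA gene, mt-Nd6 and the rRNA genes. Others named were chosen after their values were seen. Nuclear genes named were a fixed set of mitochondrial RNA and DNA factors and the highest and lowest called gene of each list. Intervals and floors cover counting error only. The fits were run on simulated data with a fixed dispersion of 0.05, where 200 of 200 genes changed by a log2 of 2 were recovered in each comparison. Between 8 and 13 unchanged genes were called as well. The simulated spread was set and not taken from these libraries, so this checks the procedure and does not give its power here.

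Annotation and sequences came from GENCODE on GRCm38 and placed 52403 of the 52550 genes. Replicate numbers were not taken to pair the samples, judged by the correlation of deviations from group means. Between Mir139KO and WT HSPCs it was 0.803 and 0.648 for numbers 2 and 4, whose libraries lay on the same side of 25% Gm26917. For numbers 1 and 3, whose libraries lay on opposite sides, it was -0.714 and -0.740. It ran from -0.0684 to 0.109 between MLL-AF9 cells and WT HSPCs, and from -0.452 to 0.577 between puro and neo cultures.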

Additional observations from a re-analysis of the deposited data

Results flagged for a closer look

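Of 96 sets of group values examined, 16 held a library whose gap to its nearest neighbour took up an unusually large part of the group's range (Dixon's 95% limit). For independent sets chance gives about 1 in 20. The sets here share libraries and are not independent, so that rate does not say how many to expect. Of the 16, 4 were WT HSPC replicate 2, 8 were MLL-AF9 replicate 1 and 2 were Mir139KO HSPC replicate 1.

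In WT HSPC replicate 2, mt-Rnr1 was at 784.9 CPM against 31.11 CPM in the next library, and mt-Rnr2 at 203.1 against 6.615. The same library had 10.65 CPM of mt-Co2 against 3.765 and 17.47 CPM of mt-Co3 against 4.262. In WT HSPC replicate 1, mt-Tp was low at 7.261 CPM against 8.956. In WT HSPC replicate 3, mt-Rnr2 per mt-Rnr1 was 2.622 against 0.2947.

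In Mir139KO HSPC replicate 1, mt-Tn was at 8.435 CPM against 1.748 and mt-Tc at 13 against 3.099. These are neighbours on the minus strand.

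In MLL-AF9 replicate 1, a neo culture, the mitochondrial share was 2.345% against 1.456% in the next culture. The members apart in this library were mt-Co1 at 11370 CPM against 6020, mt-Nd3 at 15.13 against 7.446, mt-Nd4 at 684.4 against 486.6 and mt-Nd5 at 1943 against 1087. Further members were mt-Nd6 at 393.7 against 214.9, mt-Tr at 3.193 against 1.481 and mt-Ts2 at 0.8956 against 0.3333.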

How the results depend on the processing

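Of 180 recomputed summary values 170 stayed within 1.5 times the count or 1 SD of the value as reported, among them the mitochondrial shares and ratios, and 10 did not. With few libraries 1 SD is wide, and a left-out library moved the WT share from 0.357% to 0.2192%, WT mt-Rnr2 per mt-Rnr1 from 0.839 to 0.2445 and Mir139KO tRNA per 100 protein counts from 1.01 to 0.5573. Of 1022 recomputed values of single members 909 kept direction and side of the threshold, 41 lost a call, 18 gained one and 54 changed direction, 31 of them without a call in either fit. GC correction, alone or with the replicate block, gave 26 of the 54.

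Against WT HSPCs, the 21 members called became 11 when a mean of 100 counts or more was required (fewer genes tested), 6 with GC correction, 2 with GC correction and the replicate block, 10 with puro cultures only and 10 with HSPC libraries under 25% Gm26917 only. With single libraries left out they were 17 to 22, with the replicate block alone 20, and with MLL-AF9 replicates 4 and 6 summed 21. Against Mir139KO HSPCs, the 23 members called became 11, 7 and 3 under the first 3 of these settings, 19 to 25 with single libraries left out and 25 with the replicate block. Mir139KO against WT HSPCs had 0 calls under all 24 alternatives run, the replicate block included. Puro against neo had 0 calls, 0 with the replicate block, 6 with DESeq2, and 0 to 4 with single libraries left out. Except where an alternative tests fewer genes or samples, the cause was not tested.

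Log2 fold changes that changed direction with GC correction against WT HSPCs were mt-Nd1 -0.52, mt-Nd2 -0.99, mt-Co2 -0.35, mt-Co3 -1.36, mt-Nd3 -0.16, mt-Nd4 -0.41, mt-Nd6 -0.42, mt-Tn -1.80 and mt-Tc -1.38. With the replicate block added they were mt-Nd1 -0.47, mt-Nd2 -0.91, mt-Co2 -0.14, mt-Co3 -1.01, mt-Nd4 -0.36, mt-Nd6 -0.41, mt-Tp -0.14, mt-Tn -1.65 and mt-Tc -1.24. mt-Co3 was also at -0.28 with puro cultures only, at -0.62 with HSPC libraries under 25% Gm26917 only, and at -0.20 to 1.22 with single libraries left out. mt-Rnr2 was at 2.42 with HSPC libraries over 25% Gm26917 only, 1.31 under the replicate block, 1.02 by limma-voom, and -1.36 to 2.40 with single libraries left out. With GC correction it gained a call (-2.65). Against Mir139KO HSPCs, GC correction gave mt-Co3 -1.32, mt-Nd6 -0.11, mt-Tn -2.68 and mt-Rnr2 -0.94, and with the replicate block mt-Co3 -1.12, mt-Nd6 -0.0967, mt-Tn -1.99 and mt-Rnr2 -1.23. There mt-Tn was also at -0.12 with puro cultures only and -0.14 to 1.44 with single libraries left out, and with HSPC libraries over 25% Gm26917 only mt-Tn was at -0.65 and mt-Rnr1 at 0.33. Between Mir139KO and WT HSPCs, where none was called, libraries over 25% Gm26917 gave mt-Nd6 0.14 and mt-Rnr2 0.74, those under it mt-Atp6 -0.20 and mt-Tn -0.83, and total counts only mt-Atp6 -0.0206. With single libraries left out mt-Atp6 ran -0.28 to 1.27, mt-Tn -0.58 to 1.04 and mt-Rnr2 -2.87 to 0.93. Between puro and neo, mt-Tt was at -0.0372 with limma-voom, and ran -0.0111 to 0.85 with single libraries left out, and mt-Atp8 -1.43 to 0.24. Low counts kept 9 members from being tested in either comparison with MLL-AF9 cells, and the cause of these low counts was not tested.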
